A study of Mus musculus with 8 samples.

Results

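Sp5 and 9 genes of the Wnt pathway (Rspo1, Wnt4, Wnt6, Lgr5, Ctnnb1, Lef1, Tcf7, Axin2 and Nkd1) were examined in the RNA-Seq profiles of mouse primordial follicles. They are 10 of the 26586 genes listed, and all 10 were among the 13873 genes that passed the filter on low counts. Sp5 was chosen by its measured level in the comparison reported here, so its values are given as a description, with no test. The other 9 were named as ligands, receptor, transducer, nuclear factors and targets of the pathway to ask whether Sp5, a Wnt target, moves with them. They and the lists below were also chosen with earlier results of these data known. Their shares beside those of all genes are thus descriptions and no independent support. Primordial follicles were isolated on postnatal day 3 from ovaries of C57Bl/6 x CBA mice, by digestion of ovary pieces followed by picking with fine tips, and the RNA was extracted, amplified and sequenced. The mito-supplemented group held 4 samples of offspring of the third generation, whose line began with oocytes that received an isolate of mitochondria from egg precursor cells of the same strain together with a spermatozoon at injection. The control group held 4 samples of follicles from control offspring of the same age. Whether the control line had a history of injection is not stated for these samples, so injection and supplementation cannot be told apart here. The label codes of control replicates 1 and 2, of control replicates 3 and 4, of mito-supplemented replicates 1 to 3 and of mito-supplemented replicate 4 begin differently, and what these prefixes mark is not given in the sources used here.

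Wnt proteins are secreted ligands that bind Frizzled receptors together with Lrp co-receptors. In the absence of a ligand, a complex built on Axin and Apc marks beta-catenin, the product of Ctnnb1, for destruction, and when a ligand binds, beta-catenin accumulates and acts in the nucleus with Tcf and Lef proteins, which bind DNA. R-spondins, bound by Lgr receptors, raise the number of Wnt receptors at the cell surface, and targets such as Axin2 and Nkd1 dampen the pathway in turn. In the mouse ovary, Wnt4, Rspo1 and beta-catenin are needed for normal female development, and Lgr5 marks cells of the ovarian surface epithelium.

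Since the genes include nuclear factors that bind DNA and targets of these factors, the bases around their transcription starts are shown. RefSeq windows of 300 bases on GRCm38.p6, from 250 bases before the start to 50 bases from it on, were present for 9 of the 10 genes, 14 windows in all, and Lgr5 is named only. Each window was searched on both strands for the Tcf and Lef letters CTTTG followed by AA, AT, TA or TT, no pair of which can match at the same place, and for the GC box GGGCGG. The windows of Sp5, of Axin2 and of 1 of the 4 starts of Lef1 are printed 5′ to 3′ on the strand of the gene, with the Tcf and Lef letters, or their reverse complement where the match is on the opposite strand, in capitals.
Sp5, chr2:70474673-70474972, plus strand: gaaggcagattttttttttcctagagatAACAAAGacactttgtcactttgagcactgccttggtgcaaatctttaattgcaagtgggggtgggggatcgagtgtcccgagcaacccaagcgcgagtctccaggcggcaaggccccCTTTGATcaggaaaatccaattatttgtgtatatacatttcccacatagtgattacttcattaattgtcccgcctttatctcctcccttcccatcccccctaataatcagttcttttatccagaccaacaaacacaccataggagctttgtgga
Lef1, chr3:131156044-131156343, plus strand: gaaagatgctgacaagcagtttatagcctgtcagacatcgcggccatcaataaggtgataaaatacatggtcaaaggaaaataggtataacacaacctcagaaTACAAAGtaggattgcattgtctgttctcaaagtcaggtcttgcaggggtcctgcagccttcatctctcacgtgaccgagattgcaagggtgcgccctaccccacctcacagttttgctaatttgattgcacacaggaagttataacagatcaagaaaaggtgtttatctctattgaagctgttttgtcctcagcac
Axin2, chr11:108920099-108920398, plus strand: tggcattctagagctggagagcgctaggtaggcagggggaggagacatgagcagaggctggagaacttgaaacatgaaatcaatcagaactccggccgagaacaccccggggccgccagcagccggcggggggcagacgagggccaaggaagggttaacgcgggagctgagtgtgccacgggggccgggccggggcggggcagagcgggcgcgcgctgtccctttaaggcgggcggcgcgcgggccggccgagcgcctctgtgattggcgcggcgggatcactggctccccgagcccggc

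The Sp5 window held 2 such matches. CTTTGAT lay on the strand of the gene, from 104 to 98 bases before the start, and CTTTGTT lay on the opposite strand, from 222 to 216 bases before it. The Lef1 window held CTTTGTA on the opposite strand, from 147 to 141 bases before that start, which lies inside the gene model, and the other 3 Lef1 windows held 0. No match was found in the windows of Axin2, Ctnnb1, Nkd1, Rspo1, Tcf7, Wnt4 and Wnt6. Among all 32851 windows, 16.9% held a match and 1.94% held 2 or more. The GC box, a sequence known to be bound by proteins of the Sp family, occurred in 35.7% of all windows, 0 times in the Sp5 window, 2 times in the Axin2 window and 7 times in the Wnt4 window. A match is a run of letters and not a measured binding site, and no match says only that these letters are not in the window.

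The values are counts of reads on annotated exons. Control replicates 1 to 4 held 17658559, 13917412, 18219362 and 10370045 counts, and mito-supplemented replicates 1 to 4 held 19760763, 13370911, 16116434 and 13276462. Control replicate 4 stood apart, since 74.0% of its counts were on Rnr1 and Rnr2, which carry the names of mitochondrial rRNA genes, against 14.9% to 44.3% in the other 7 libraries, and 2559876 of its counts lay outside the rRNA genes. Levels are given as CPM, counts scaled to library size after TMM normalization, and a level of 0 in a library allows up to 3 counts, which is 0.123, 0.238, 0.172 and 0.592 CPM in control replicates 1 to 4. Such limits cover counting error only, because amplified reads are not independent molecules. The normalization factor of control replicate 4 was 0.489, against 0.909 to 1.39 in the other 7 libraries. A low factor raises the CPM of every gene in that library. The labels call the samples biological replicates.

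The labelled cell type was checked by markers of the cells that an isolate from the ovary can hold. Oocyte markers were present in every library, and 12 of 12 were tested. Their summed level was 3630 CPM in control replicate 1, 198, 180 and 634 CPM in the other controls, and 308, 193, 764 and 124 CPM in mito-supplemented replicates 1 to 4. Nlrp5, the most abundant of them, had 1392 CPM in control replicate 1 and between 18.4 and 245 CPM in the other 7 libraries. Pregranulosa markers, of which Wt1 was the most abundant, summed to 240, 157, 269 and 742 CPM in controls versus 307, 776, 642 and 962 CPM in the mito-supplemented group. Surface epithelium markers summed to 247, 203, 204 and 754 CPM in controls versus 636, 1377, 770 and 894 CPM in the mito-supplemented group, so that control replicate 4 lay among the mito-supplemented libraries and the other 3 controls lay below them. Red cell markers summed to 3617 CPM in control replicate 2, 2401 CPM in control replicate 3 and 4530 CPM in mito-supplemented replicate 1, against 13.4 to 72.9 CPM in the other 5 libraries. Among these 3 libraries r was 0.886 to 0.920, and between them and the remaining 5 it was 0.624 to 0.787, a correlation across genes, which are not independent replicates. In samples of whole follicle isolates, more cells of a type and more RNA per cell cannot be told apart.

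**Figure D1:**
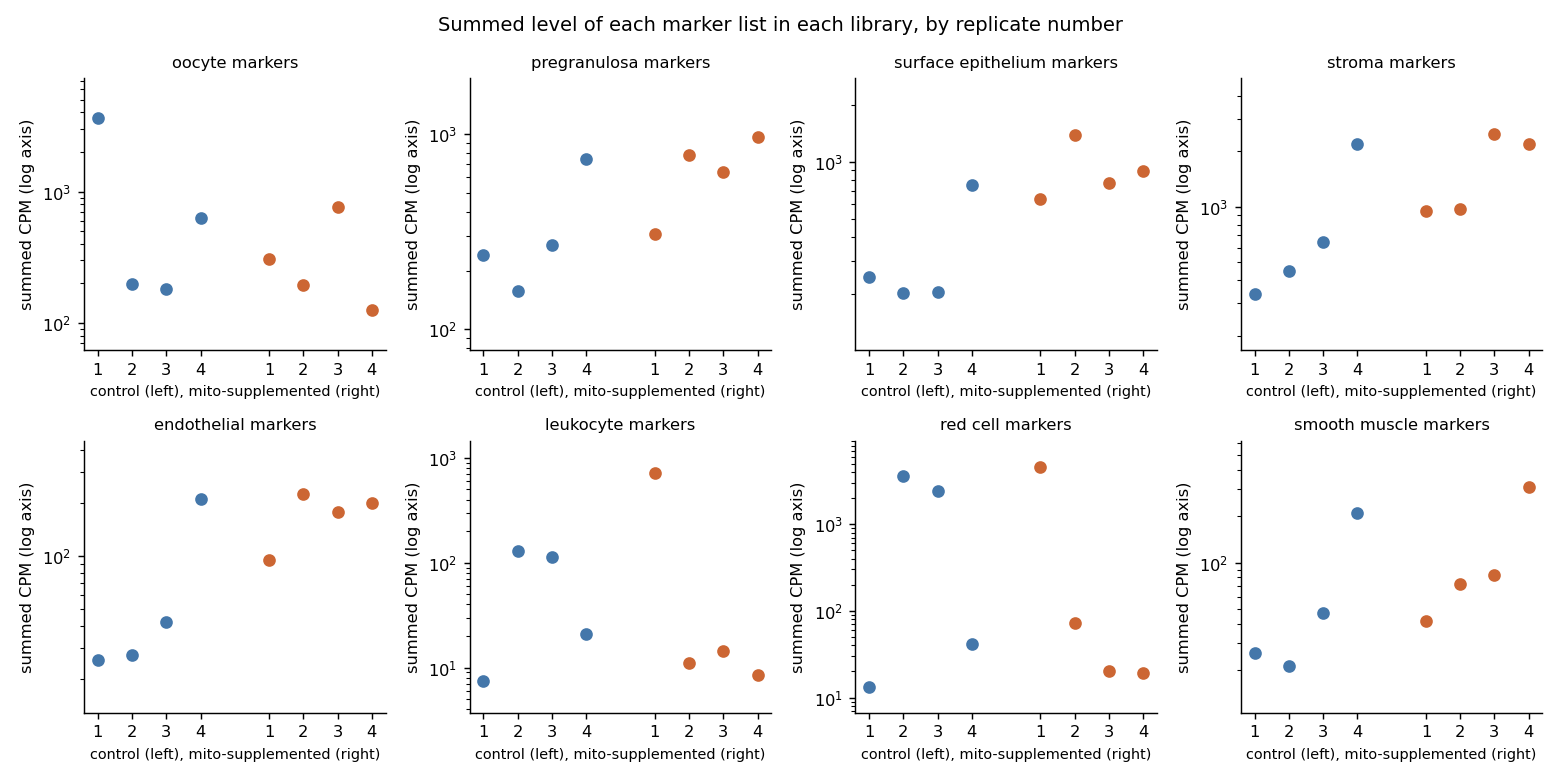
Summed level of 8 marker lists in each library, in CPM on a log axis, with control replicates 1 to 4 on the left and mito-supplemented replicates 1 to 4 on the right of each panel. Surface epithelium markers stood at 754 CPM in control replicate 4 and between 203 and 247 CPM in the other controls, and red cell markers were high in control replicates 2 and 3 and mito-supplemented replicate 1.

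Mito-supplemented samples were compared with controls. Sp5 was detected at 19 to 223 counts in the mito-supplemented libraries and at 0 to 4 counts in the controls. All 9 other genes had a higher fitted level in the mito-supplemented group, from a log2 fold change of 0.37 for Ctnnb1 to 2.44 for Lgr5, but in edgeR's quasi-likelihood test 0 of the 9 combined an adjusted p value below 0.05 with a difference of 2-fold or more. Of all 13873 genes tested, 0% passed these thresholds. At an unadjusted p value under 0.05, 4 of the 9 (Rspo1, Lgr5, Lef1 and Axin2) were higher and 0 lower, against 5.31% of all genes higher and 2.4% lower. The median log2 fold change of the 9 was 1.11, and that of all genes tested was -0.10, with 44.9% of them above 0. In Lgr5 alone of the 9 did every mito-supplemented library lie above every control library, an arrangement found in 3% of all genes, and the reverse was found in 0 of the 9 and in 2.03% of all genes. With control replicate 4 left out, the median of the 9 was 1.85, the number at an unadjusted p value under 0.05 was 6, against 8.98% of all genes, and the number with separated groups was also 6 (Rspo1, Wnt6, Lgr5, Ctnnb1, Lef1 and Axin2), against 8.44% of all genes. Control replicate 4 was the highest control for all of the 9 but Tcf7. Leaving it out could therefore only keep or raise the number with separated groups, which was read for no other library left out. The 4 at an unadjusted p value under 0.05 became 2 without control replicate 2, control replicate 3 or mito-supplemented replicate 2, where 3.56%, 4.08% and 3.1% of all genes were higher at that level.

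**Figure D2:**
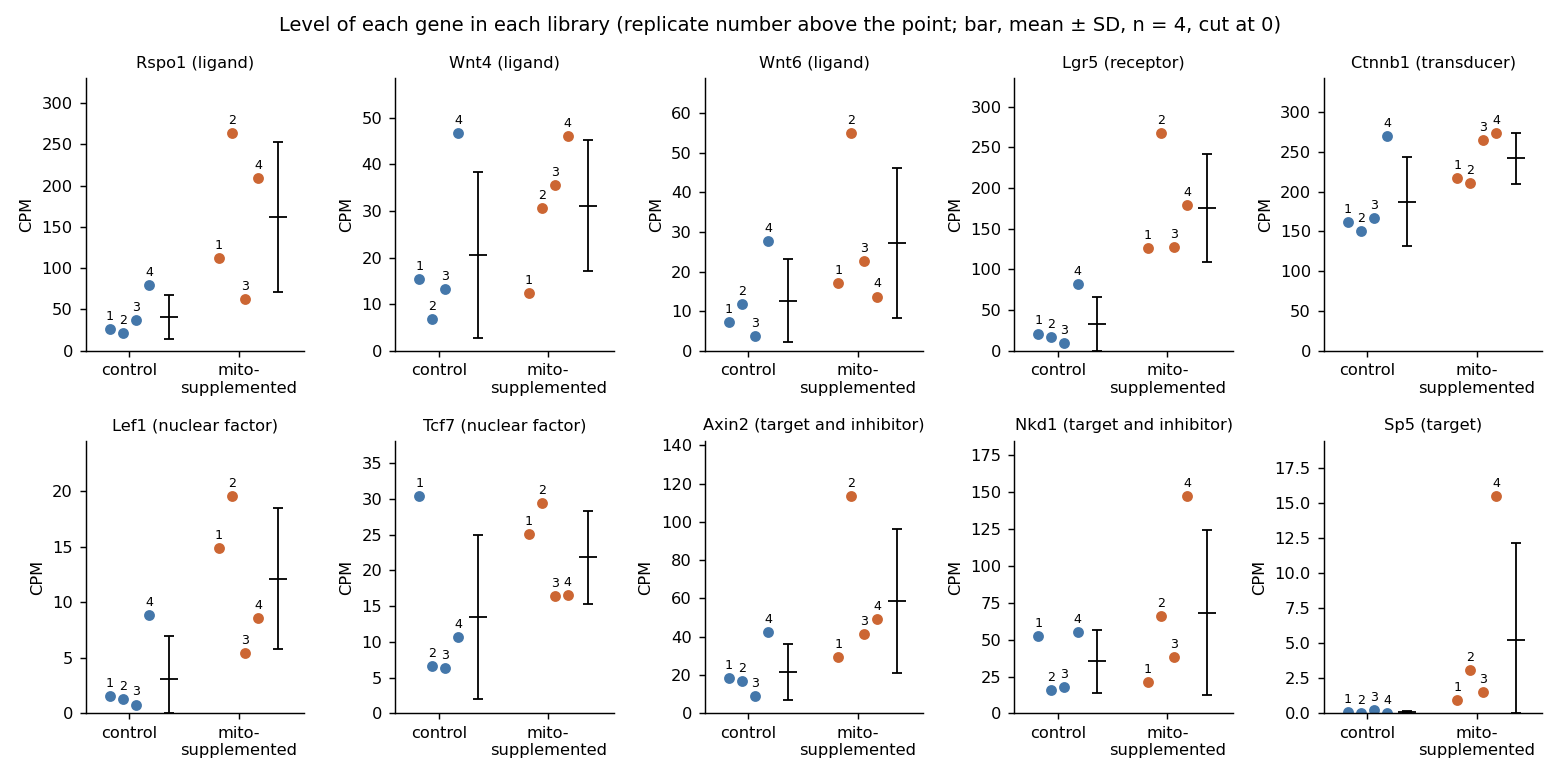
Level of each of the 10 genes in CPM in every library, with the replicate number above each point and the mean ± SD of each group of 4 beside it, with the bar ending at 0 where the SD exceeds the mean. Control replicate 4 is the highest control for 8 of the 10 genes, all but Tcf7 and Sp5, and for Sp5 it stands at 0.

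Among the ligands, Rspo1 (chromosome 4, 124986430 to 125009099 of GRCm38, plus strand), an R-spondin, had 26.2, 21.7, 36.7 and 79.3 CPM in control replicates 1 to 4 and 112, 264, 62.8 and 209 CPM in mito-supplemented replicates 1 to 4. Thus 3 of the 4 mito-supplemented libraries lay above every control, and mito-supplemented replicate 3 lay below control replicate 4. The means were 41.0 ± 26.3 and 162 ± 91.2 CPM (± SD over the 4 libraries of a group), a log2 fold change of 1.99 (SE 0.56), and the adjusted p value was 0.562 in edgeR's quasi-likelihood test. The likelihood ratio test of edgeR, which the study used, gave Rspo1 an adjusted p value of 0.134. Wnt4 (chromosome 4, 137277489 to 137299726, plus strand), the ligand known from ovarian development, had 15.5, 6.82, 13.2 and 46.8 CPM in controls versus 12.3, 30.5, 35.5 and 46.0 CPM in the mito-supplemented group. No mito-supplemented library exceeded control replicate 4, and the log2 fold change of Wnt4 was 0.60 (SE 0.62, with adjusted p = 0.794 by edgeR quasi-likelihood), less than its standard error. It was 1.41 without control replicate 4. Wnt6 (chromosome 1, 74771892 to 74785322, plus strand), a further ligand, had 7.34, 11.7, 3.83 and 27.6 CPM in controls versus 17.2, 55.1, 22.6 and 13.7 CPM in the mito-supplemented group. Only mito-supplemented replicate 2 exceeded all controls, and the log2 fold change of 1.11 (SE 0.67, with adjusted p = 0.695 by the same edgeR test) became 0.51 without that library and 1.85 without control replicate 4.

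The receptor Lgr5 (chromosome 10, 115450311 to 115587780, minus strand), which binds R-spondins and is itself a Wnt target, had 21.1, 16.6, 9.44 and 82.5 CPM in control replicates 1 to 4 and 126, 268, 128 and 179 CPM in mito-supplemented replicates 1 to 4. The groups did not overlap, and control replicate 4 was 3.91 times as high as the next control. The means were 32.4 ± 33.7 and 175 ± 66.4 CPM (± SD over the 4 libraries of a group), a log2 fold change of 2.44 (SE 0.66) with an adjusted p value of 0.544 in edgeR's quasi-likelihood test. The adjusted p value of Lgr5 was 0.0779 in edgeR's likelihood ratio test and 0.0340 in DESeq2, which called 1.02% of all genes and Lgr5 alone of the 9. Over all 20 alternatives it ranged from 0.0340 to 0.971.

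Ctnnb1 (chromosome 9, 120929216 to 120960507, plus strand), which encodes beta-catenin and whose protein is regulated mainly through its destruction, had the lowest SD relative to its mean of the 10 genes in both groups. Its levels were 162, 151, 167 and 271 CPM in controls versus 217, 211, 265 and 274 CPM in the mito-supplemented group, and the 3 lowest libraries were control replicates 1 to 3. The means of 188 ± 55.8 and 242 ± 32.2 CPM (± SD over the 4 libraries of a group) gave a log2 fold change of 0.37 (SE 0.30, with adjusted p = 0.749 by edgeR quasi-likelihood), which was 0.62 without control replicate 4. Exons of Ctnnb1 overlap those of Ulk4 on the opposite strand and of Mir7090 on its own strand, and the strand setting of the counting is not given in the sources used here, so that reads from the shared bases cannot be told apart.

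Of the nuclear factors, Lef1 (chromosome 3, 131110471 to 131224356, plus strand) had 1.60, 1.27, 0.801 and 8.88 CPM in controls versus 14.9, 19.6, 5.40 and 8.62 CPM in the mito-supplemented group. Control replicate 4 lay above mito-supplemented replicates 3 and 4, and the other 3 controls lay below all mito-supplemented libraries. The log2 fold change of Lef1 was 1.99 (SE 0.86, with adjusted p = 0.636 by edgeR quasi-likelihood) and 3.32 without control replicate 4. Lef1 shares exonic bases with Gm43352 on the opposite strand. Tcf7 (chromosome 11, 52252371 to 52283014, minus strand), the related factor, had 30.5, 6.58, 6.41 and 10.7 CPM in controls versus 25.0, 29.4, 16.4 and 16.5 CPM in the mito-supplemented group. It differed from the other genes in that its highest level was in control replicate 1, the library with the highest sum of oocyte markers, and its log2 fold change of 0.69 (SE 0.57, with adjusted p = 0.752 by the same edgeR test) was 1.50 without that library.

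Axin2 (chromosome 11, 108920349 to 108950783, plus strand), a scaffold of the destruction complex that the pathway induces and that restrains it, had 18.3, 17.0, 8.98 and 42.6 CPM in control replicates 1 to 4 and 29.7, 114, 41.5 and 49.5 CPM in mito-supplemented replicates 1 to 4. Mito-supplemented replicate 2 was the highest, and control replicate 4 lay above mito-supplemented replicates 1 and 3. The means were 21.7 ± 14.5 and 58.6 ± 37.6 CPM (± SD over the 4 libraries of a group), a log2 fold change of 1.44 (SE 0.58, with adjusted p = 0.630 by edgeR quasi-likelihood), which was 0.90 without mito-supplemented replicate 2. Axin2 shares exonic bases with Gm11670 on the opposite strand. Nkd1 (chromosome 8, 88521354 to 88594884, plus strand), which binds Dishevelled and dampens Wnt signals, had 52.2, 15.8, 18.1 and 55.1 CPM in controls versus 21.5, 65.9, 38.2 and 148 CPM in the mito-supplemented group. Its highest library was mito-supplemented replicate 4, and its log2 fold change of 0.95 (SE 0.65, with adjusted p = 0.716 by the same edgeR test) was 0.29 without that library.

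Sp5 (chromosome 2, 70474923 to 70477729, plus strand), a zinc finger transcription factor of the Sp family and a known direct target of Wnt signalling, whose window with 2 Tcf and Lef matches is printed above, was counted 2, 0, 4 and 0 times in control replicates 1 to 4. In mito-supplemented replicates 1 to 4 it was counted 19, 45, 33 and 223 times. These counts correspond to 0.0820, 0, 0.229 and 0 CPM in controls versus 0.922, 3.12, 1.50 and 15.5 CPM in the mito-supplemented group. The groups were separated, and mito-supplemented replicate 4, the only library with its label prefix, held 69.7% of the counts of its group. The ratio of the summed counts, scaled by the normalized library sizes, was 44.4, and 16.9 with mito-supplemented replicate 4 left out. The fitted log2 fold change of Sp5 was 5.74 (SE 1.42), with a lowest value of 4.28 when mito-supplemented replicate 4 was left out and a highest of 6.81 when control replicate 3 was. Control replicate 4, which was near the mito-supplemented libraries for Lgr5, Rspo1, Axin2 and Lef1, had 0 counts of Sp5. At its depth a level of up to 0.592 CPM is allowed by this 0 for counting error alone.

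Compared per kilobase of merged exon, the levels of the 10 genes were spread over a wide range. In controls, Ctnnb1 had the highest level per kilobase, 36.1 ± 10.8 CPM per kilobase, followed by Rspo1 with 21.1 ± 13.6, Nkd1 with 7.74 ± 4.66, Wnt6 with 5.76 ± 4.79, Tcf7 with 5.15 ± 4.37, Wnt4 with 4.90 ± 4.26, Axin2 with 3.95 ± 2.64, Lgr5 with 3.16 ± 3.29, Lef1 with 0.357 ± 0.437 and Sp5 with 0.0370 ± 0.0514 (± SD over the 4 libraries of a group). Neighbours in this order from Nkd1 to Lgr5 differed by less than their spread. In mito-supplemented samples Rspo1 had 83.6 ± 47.0 CPM per kilobase and Ctnnb1 46.6 ± 6.21, again a difference within the spread of Rspo1. Lgr5 followed with 17.1 ± 6.47, Nkd1 with 15.0 ± 12.3, Wnt6 with 12.4 ± 8.65, Axin2 with 10.6 ± 6.84, Tcf7 with 8.32 ± 2.47 and Wnt4 with 7.42 ± 3.36 CPM per kilobase (± SD over the 4 libraries of a group). Sp5 with 2.5 ± 3.28 and Lef1 with 1.38 ± 0.723 CPM per kilobase were the lowest, and Sp5 was thus a gene of low level in both groups.

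The other genes of the pathway were read from a list of 95 genes in 8 roles, of which 94 were listed and 67 were tested besides Sp5. In edgeR's quasi-likelihood test 0 of the 67 passed the thresholds. At an unadjusted p value under 0.05, 12 stood higher in the mito-supplemented group and 0 lower, against 5.31% and 2.4% of all genes, and 50 of the 67 log2 fold changes were above 0, against 44.9% of all genes, with a median of 0.63. Among the 58 of these genes outside the 10 described, 8 were higher and 0 lower at that level, and the median was 0.53. The 12 became 5 without control replicate 2 (3.56% of all genes higher in that fit), 6 without mito-supplemented replicate 2 (3.1%), 7 without control replicate 1 (5.51%) or control replicate 3 (4.08%), and 16 without control replicate 4 (8.98%). When the 3 libraries high in red cell markers were left out, a setting added after the data were seen, 8 were higher and 2 lower, against 5.91% and 4.91% of all genes. Of the 26 genes that did not pass the filter on low counts, Wnt3a, Wnt9b, Wnt16 and Sost had 0 counts in every library.

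Of these 67 genes, Wnt9a was the 1 past the thresholds in edgeR's likelihood ratio test, which called 0.418% of all genes. Wnt9a (chromosome 11, 59306928 to 59333552, plus strand), a ligand, had 1.93, 0.0793, 0.172 and 0.395 CPM in controls versus 16.4, 14.7, 10.5 and 16.7 CPM in the mito-supplemented group. The groups did not overlap, control replicate 4 lay with the other controls, and the mito-supplemented libraries lay close together. Groups separated in this direction were found in 4 of the 67 (Wnt9a, Wls, Lgr5 and Ror1) and in 3% of all genes. The reverse was found in 0 of the 67 and in 2.03% of all genes. The log2 fold change of Wnt9a was 4.41 (SE 0.95), with an adjusted p value of 0.00410 in the likelihood ratio test, 0.000173 in DESeq2 and 0.450 in the quasi-likelihood test. It was counted 47, 1, 3 and 2 times in controls and 337, 212, 232 and 240 times in the mito-supplemented group. Thus Wnt9a passed the filter on low counts mainly through the latter. Since it is named for passing the likelihood ratio test, its p values are given as a description. Wnt2b, which had the highest level per kilobase of the Wnt ligands as a mean over all 8 libraries but not in controls, where Wnt6 was higher, had 9.64, 7.06, 6.58 and 61.6 CPM in controls versus 53.3, 110, 60.9 and 39.8 CPM in the mito-supplemented group, and control replicate 4 again lay among the latter. Of the 19 Wnt ligands listed, 6 were tested and 13 were not.

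Wls carries Wnt proteins to the cell surface. It had 3.08, 7.45, 10 and 18.4 CPM in controls versus 26.2, 53.3, 47.4 and 33.8 CPM in the mito-supplemented group. These levels did not overlap, as for 3% of all genes in this direction. The log2 fold change of Wls was 2.06 (SE 0.55). Its adjusted p value was 0.544 in edgeR's quasi-likelihood test, 0.0920 in the likelihood ratio test and 0.0458 in DESeq2. Porcn, the enzyme that attaches a lipid to Wnt proteins, had at most 2.42 CPM in any library. Among R-spondins and their receptors, 7 of 9 genes were tested and Rspo1 and Lgr5 were the 2 at an unadjusted p value under 0.05, both higher, beside 5.31% of all genes. Lgr4, a relative of Lgr5, had 47.6 ± 17.7 CPM in controls versus 79.3 ± 28.9 CPM in the mito-supplemented group, and Znrf3, a ubiquitin ligase that removes Wnt receptors, had 17.9 ± 5.47 and 29.9 ± 14.9 CPM (± SD over the 4 libraries of a group).

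Of the Wnt receptors, 13 of 15 were tested, 12 had a log2 fold change above 0 (44.9% of all genes), and Fzd2, Fzd3 and Ror1, named after their values were seen, were higher at an unadjusted p value under 0.05 (5.31% of all genes). Lrp6, a co-receptor for Wnt proteins, had 94.2 ± 11.7 and 134.7 ± 44.0 CPM, and Ryk had 54.9 ± 12.7 and 50.6 ± 5.46 CPM in controls and mito-supplemented samples (± SD over the 4 libraries of a group). Secreted inhibitors were mostly too low to test, with 5 of 13 tested. Of these 5, 0 had an unadjusted p value under 0.05, beside 5.31% of all genes higher and 2.4% lower. Sfrp1, which binds Wnt proteins outside the cell and made up 82.2% of the summed level of this role, had 59.6, 72.1, 129 and 458 CPM in controls versus 70.2, 73.1, 141 and 258 CPM in the mito-supplemented group, with its highest level in control replicate 4. Dkk3, of the Dickkopf family, had 17.1 ± 13.9 CPM in controls versus 25.0 ± 16.5 CPM in the mito-supplemented group (± SD over the 4 libraries of a group).

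The cytoplasmic transducers and the destruction complex had genes on both sides of 0, with all 15 genes tested, a median log2 fold change of -0.06, 7 values above 0 (44.9% of all genes) and Axin2 as the 1 gene at an unadjusted p value under 0.05 (5.31% of all genes higher). Gsk3b, a kinase of the destruction complex, had 204 ± 14.4 and 196 ± 19.7 CPM, and Tnks2, a tankyrase that acts on Axin, had 194 ± 41.3 and 225 ± 52.1 CPM in controls and mito-supplemented samples (± SD over the 4 libraries of a group). Among 12 nuclear factors, all of which were tested, Lef1, Bcl9l and Tle2 were higher at an unadjusted p value under 0.05 (5.31% of all genes), and Bcl9l and Tle2 are named after their values were seen. Tle4, a co-repressor, had 107 ± 74.6 and 55.0 ± 22.3 CPM, and Bcl9, a partner of beta-catenin, had 60.3 ± 47.3 and 84.6 ± 35.1 CPM (± SD over the 4 libraries of a group). Control replicate 1 had 219 CPM of Tle4 and 123 CPM of Bcl9. The other controls had between 63.3 and 75.3 CPM of Tle4 and between 22.2 and 70.5 CPM of Bcl9. Of 18 Wnt target genes, 13 were tested besides Sp5, and 12 of these had a log2 fold change above 0, against 44.9% of all genes, with a median of 0.94, against -0.10 for all genes. The 13 include Axin2, Nkd1, Lgr5, Lef1 and Tcf7, described above, and Znrf3 and Rnf43, also counted with the R-spondins. This role is thus largely a second count of genes already given. Tnfrsf19, a receptor known as a Wnt target, had 32.9, 36.5, 20.6 and 130 CPM in controls versus 88.8, 266, 119 and 171 CPM in the mito-supplemented group, highest in mito-supplemented replicate 2 and lowest in control replicate 3, as for Axin2. Myc, which many other signals also induce, had 38.3 ± 20 CPM in controls versus 37.1 ± 13.1 CPM in the mito-supplemented group (± SD over the 4 libraries of a group).

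**Figure D3:**
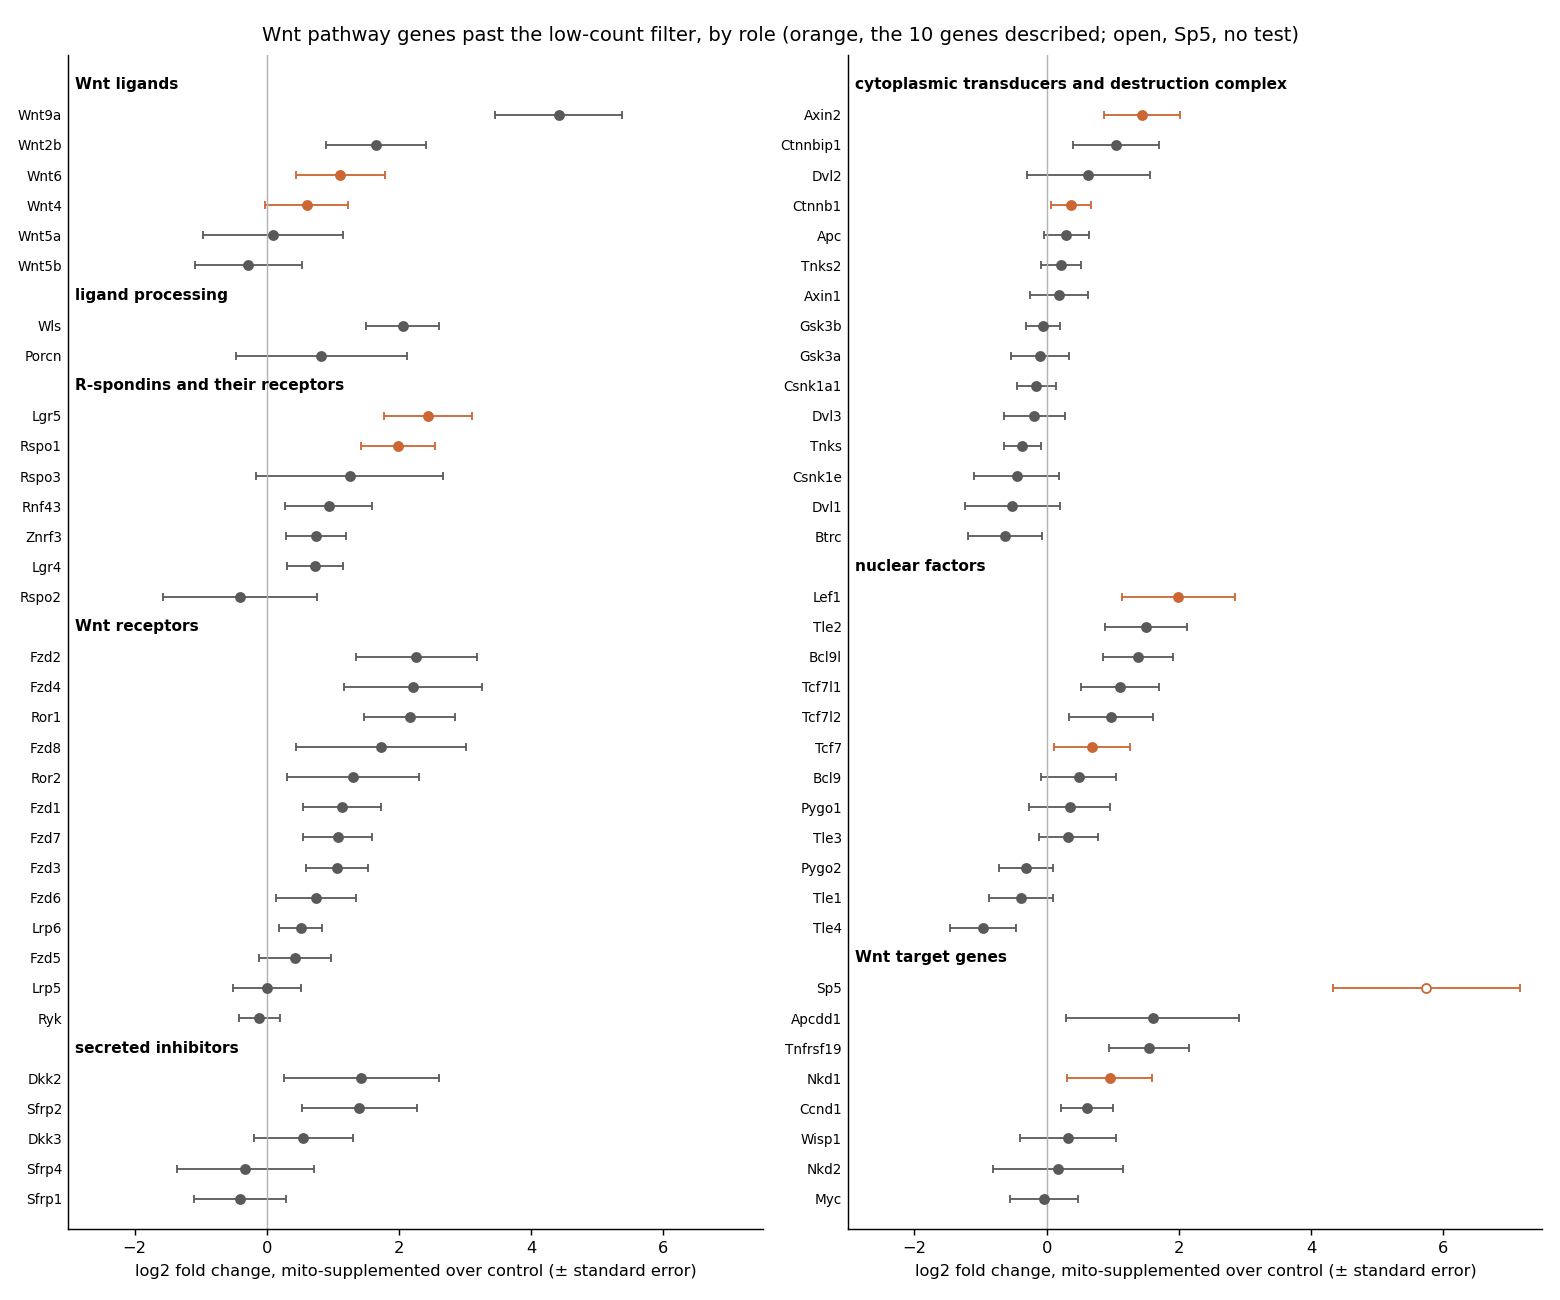
Log2 fold change of mito-supplemented over control samples, with its standard error, for the genes of the wider Wnt list that passed the filter on low counts, each gene drawn once under the first of its roles. Orange points are the 10 genes described, the open point is Sp5, which has no test, and 50 of the 67 other genes lie to the right of 0.

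In ovarian genes known to depend on Wnt4 and beta-catenin, a list of 4, Irx3 and Irx5 were higher at an unadjusted p value under 0.05 (5.31% of all genes) and are named after their values were seen. Fst, which encodes follistatin, had 24.8, 6.50, 2.52 and 24.9 CPM in controls versus 10.6, 27.7, 58.8 and 16.5 CPM in the mito-supplemented group, so that the groups overlapped. Bmp2 had at most 10.7 CPM in any library. In the Sp family, 4 genes besides Sp5 were tested, and 0 of them were at an unadjusted p value under 0.05, where 5.31% of all genes were higher and 2.4% lower. Their means in controls and mito-supplemented samples were 143 ± 28.3 and 131 ± 52.5 CPM for Sp1, 45.7 ± 14.0 and 29.6 ± 19.7 CPM for Sp2, 215 ± 81.0 and 179 ± 80.7 CPM for Sp3, and 71.6 ± 51.7 and 38.4 ± 33.6 CPM for Sp4 (± SD over the 4 libraries of a group). All 4 had log2 fold changes below 0, from -0.90 for Sp4 to -0.13 for Sp1, and 44.9% of all genes were above 0. In control replicates 2 and 3 and mito-supplemented replicate 1, the libraries high in red cell markers, Sp4 had 120, 111 and 88.6 CPM. Elsewhere it had between 15.8 and 39.5 CPM. Sp3 had 278, 290 and 299 CPM in those libraries and 130 to 155 CPM in the others. Sp1 had 167, 168 and 206 CPM there against 84.6 to 126 CPM, and for Sp2 the libraries overlapped. Exons of Sp2 overlap those of D030028A08Rik and exons of Sp3 those of Sp3os, both on the opposite strand. Sp6, Sp7, Sp8 and Sp9 did not pass the filter on low counts.

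Whether Sp5 moved with the other genes was described by the Pearson correlation of log2 CPM over the 8 libraries, which share the 2 groups and differ in depth and in their marker levels. With Sp5, the correlation was highest for Rspo1 (r = 0.81) and Lgr5 (r = 0.72) and lowest for Wnt6 (r = 0.33), and it was 0.60 for Axin2. Their ranks among all genes tested were 467 for Rspo1, 918 for Lgr5, 1850 for Axin2 and 4166 for Wnt6. The 4 controls entered these values with 0 to 4 counts of Sp5, at or near the 3 counts that a level of 0 allows. With mito-supplemented replicates 4 and 2 left out, these values were 0.55 for Rspo1, 0.57 for Lgr5, 0.19 for Wnt6 and 0.29 for Axin2. Those of Wnt4, Ctnnb1, Lef1 and Tcf7 went from 0.52, 0.56, 0.58 and 0.44 to 0.18, 0.43, 0.43 and 0.42. The correlation of Nkd1 with Sp5 was 0.64 over the 8 libraries and -0.09 over the 6 that remain when mito-supplemented replicates 4 and 2 are left out. With the group means removed, the correlation with Sp5 was 0.64 for Nkd1, 0.39 for Rspo1, 0.35 for Wnt4 and 0.09 for Ctnnb1. It was -0.02 for Axin2, -0.09 for Lgr5, -0.14 for Tcf7, -0.27 for Lef1 and -0.40 for Wnt6. Values over the 8 libraries include the difference between the groups, by which Sp5 was chosen. Those without the group means also rest on 0 to 4 counts of Sp5 in controls. The genes most like Sp5 among all those tested were Col4a5, a chain of basement membrane collagen (r = 0.977), Epb4.1l1 (r = 0.974), Vwa5a (r = 0.968), Fam113a (r = 0.964) and Cd151, a tetraspanin (r = 0.960). Col4a5 had 15.3, 8.96, 21.6 and 13.2 CPM in controls versus 23.7, 55.6, 41.2 and 92.3 CPM in the mito-supplemented group, highest where Sp5 was highest. Over the same 6 libraries, the correlations of these 5 genes with Sp5 ran from 0.89 for Cd151 to 0.98 for Epb4.1l1. These 5 were chosen as the highest over the 8 libraries, which hold the 6, so high values follow in part from that choice.

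Axin2 had other neighbours. The genes most like it were AU040972 (r = 0.981), Pcp4l1 (r = 0.979), 1700029G01Rik (r = 0.977), Limch1 (r = 0.977) and Tnfrsf19 (r = 0.976) over the same 8 libraries. Lgr5 (r = 0.936), Wnt6 (r = 0.932) and Lef1 (r = 0.890) stood at ranks 38, 42 and 137 among the genes tested. Lower values were those of Rspo1 (r = 0.842), Wnt4 (r = 0.695), Ctnnb1 (r = 0.671), Nkd1 (r = 0.670), Sp5 (r = 0.60) and Tcf7 (r = 0.579), at ranks 320, 1169, 1313, 1315, 1869 and 2028. The order differed with control replicate 3 and mito-supplemented replicate 2 left out. The correlation of Axin2 was then 0.99 with Ctnnb1, 0.92 with Lgr5, 0.90 with Wnt4, 0.87 with Rspo1, 0.80 with Lef1, 0.73 with Wnt6, 0.65 with Sp5, 0.64 with Nkd1 and 0.05 with Tcf7. These correlations are descriptions of 8 libraries and carry no test.

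The summed level of surface epithelium markers was high in the libraries in which Axin2, Lgr5, Rspo1 and Lef1 were high. All 10 markers of that list were tested, and all 10 had a log2 fold change above 0 (44.9% of all genes), with a median of 1.75. Of these, 6 (Upk1b, Upk3b, Krt7, Krt8, Lhx9 and Muc16) were at an unadjusted p value under 0.05, against 5.31% of all genes higher at that level, and Upk1b passed the likelihood ratio test, against 0.418% of all genes. With at most 0.858 CPM in control replicates 2 to 4, Upk1b passed the filter on low counts mainly through the mito-supplemented group. Its call is given as a description. Without control replicate 4 the median of the 10 was 3.23. Aldh1a1 was the most abundant, with 46.1% of the summed level. Upk3b had 21.2, 8.80, 8.98 and 92.0 CPM in controls versus 88.4, 188, 90.5 and 162 CPM in the mito-supplemented group, and Upk1b had 4.72, 0.238, 0.858 and 0.790 CPM in controls versus 29.0, 134, 23.9 and 44.8 CPM in the mito-supplemented group, so that control replicate 4 was near the latter for Upk3b and with the other controls for Upk1b. The Pearson correlation of log2 CPM with the log2 of the summed markers over the 8 libraries was 0.98 for Lgr5, 0.95 for Axin2, 0.94 for Lef1, 0.92 for Rspo1, 0.86 for Wnt6, 0.83 for Ctnnb1, 0.79 for Wnt4, 0.68 for Sp5, 0.66 for Nkd1 and 0.54 for Tcf7. With the group means removed it was 0.95 for Lgr5, 0.90 for Axin2, 0.86 for Lef1, 0.81 for Wnt6, 0.81 for Wnt4, 0.79 for Rspo1, 0.72 for Ctnnb1, 0.60 for Nkd1 and 0.18 for Tcf7. For Sp5 it was -8.7e-05, and all values of Sp5 here rest on 0 to 4 counts in controls. With control replicates 2 and 3 left out and the group means kept, the correlation was 0.96 for Lgr5, 0.93 for Axin2, 0.90 for Rspo1, 0.87 for Lef1, 0.87 for Wnt6, 0.65 for Ctnnb1, 0.59 for Sp5, 0.58 for Wnt4, 0.26 for Nkd1 and -0.27 for Tcf7. The part of these cells in the levels of the Wnt genes was not tested.

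**Figure D4:**
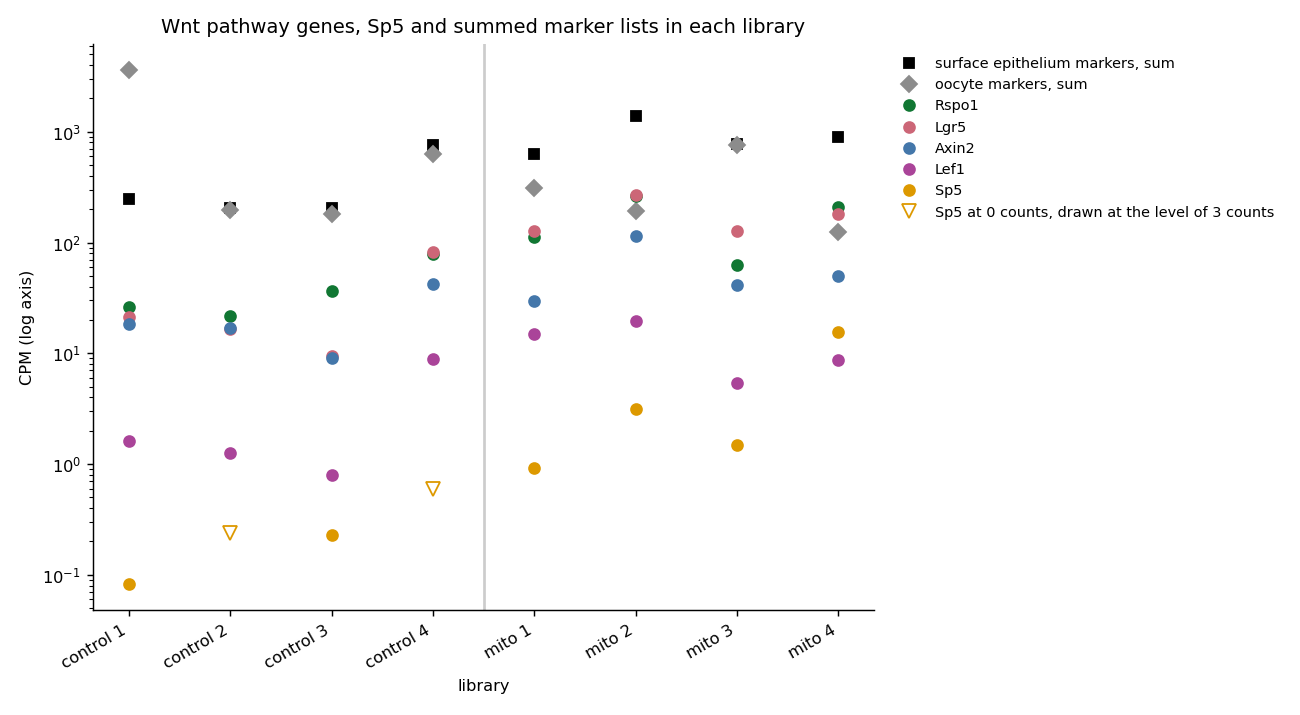
Level of Rspo1, Lgr5, Axin2, Lef1 and Sp5, and summed level of the surface epithelium and oocyte markers, in CPM on a log axis in each library, with open triangles where Sp5 had 0 counts, drawn at the level of 3 counts. In control replicate 4 the first 4 genes and the surface epithelium markers stand near the mito-supplemented libraries and Sp5 is at 0.

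Other marker lists were read in the same way. All 12 oocyte markers had a log2 fold change below 0 in the fit to 8 libraries, with a median of -1.72 and Kit as the 1 gene at an unadjusted p value under 0.05, against 2.4% of all genes lower at that level. This rested on control replicate 1, since without it the median was 0.27 and 8 of the 12 were above 0. The mean sum of the other 3 controls was 337 CPM, beside 347 CPM in the mito-supplemented group. Pregranulosa markers had a median of 0.75 over 8 genes tested, and Amhr2, the receptor for anti-Müllerian hormone, was the 1 gene at an unadjusted p value under 0.05, higher in the mito-supplemented group as were 5.31% of all genes. Without control replicate 2 the median of this list was 0.35 over 9 genes tested. Stroma markers, led by Col3a1, summed to 336, 448, 649 and 2199 CPM in controls versus 949, 978, 2480 and 2182 CPM in the mito-supplemented group. All 8 had a log2 fold change above 0 (44.9% of all genes), with a median of 0.74. That median was 1.69 without control replicate 4. It was 0.44 without mito-supplemented replicate 4, where 6 of the 8 were above 0. Endothelial markers, led by Kdr, summed to 25.6, 27.2, 42.3 and 212 CPM in controls versus 94.9, 225, 177 and 201 CPM in the mito-supplemented group, and Esam passed the likelihood ratio test, as did 0.418% of all genes. Of the 6, 5 were above 0 (44.9% of all genes), with a median of 1.10. That median was 0.43 without mito-supplemented replicate 3, with 4 of the 6 above 0, and 1.78 without control replicate 4. Smooth muscle markers, led by Myh11, summed to 25.7, 21.1, 46.7 and 210 CPM in controls versus 41.4, 72.2, 83.5 and 308 CPM in the mito-supplemented group, and all 4 were above 0, with a median of 1.09, where 44.9% of all genes were above 0. Without mito-supplemented replicate 4 that median was 0.12 and 2 of the 4 were above 0, and without control replicate 4 it was 2.02. Leukocyte markers, led by Lyz2, summed to 722 CPM in mito-supplemented replicate 1 and to between 7.43 and 129 CPM in the other 7 libraries. Without the 3 libraries high in red cell markers, all 9 Wnt genes besides Sp5 had a log2 fold change above 0, as did 49.7% of all genes, with a median of 0.82. Tcf7 went from 0.69 to 0.03, Wnt4 from 0.60 to 0.28 and Lef1 from 1.99 to 1.12, and 2 of the 9 were higher at an unadjusted p value under 0.05, against 5.91% of all genes. The most abundant red cell marker was Slc4a1, and the part of these lists in the results was not tested.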

How the data were processed

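RNA-Seq was performed by the authors on 4 mito-supplemented and 4 control samples, with reads trimmed, mapped to GRCm38 with STAR and counted on exons. The deposited values are raw counts per gene symbol, all columns labelled. One further control library that the study set aside was not analysed. Here the counts were filtered by default settings, scaled by TMM and compared with the quasi-likelihood test of edgeR 4.0.16 (R 4.3.3), adjusted by Benjamini-Hochberg over all 13873 genes tested. A call needed an adjusted p value below 0.05 and a difference of 2-fold or more. Log2 levels had a prior count of 2. Alternatives included edgeR's likelihood ratio test, DESeq2 1.42.0 and limma 3.58.1 (voom). Scripts were tested on simulated data. Gene models are from GENCODE M21 and promoter windows from RefSeq. Genes named were the 10 members, the 2 non-members of highest level per kilobase in each role, list genes past the likelihood ratio test, tested Sp genes, and the 5 genes most correlated with Sp5 and with Axin2. Some others are named for passing an unadjusted p value of 0.05 or as markers. The members and lists were chosen with earlier results of these data known.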

Additional observations from a re-analysis of the deposited data

Results flagged for a closer look

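In 62 sets of 4 values, each set being a quantity in a group, 13 held a library far from the rest, where a chance rate of 1 in 20 would give about 3.1. The 10 genes were read on the log2 scale and in CPM, the sums of markers in CPM only, and the total count, the share on Rnr1 and Rnr2 and the normalization factor of each library were also read. The sets are thus not independent, and that rate is a rough guide. None of the genes had such a library on the log2 scale. In CPM, control replicate 4 was far above the other controls for Lgr5 (82.5 against 9.44 to 21.1), Ctnnb1 (271 against 151 to 167) and Lef1 (8.88 against 0.801 to 1.60), and mito-supplemented replicate 4 was far above the rest of its group for Sp5 (15.5 against 0.922 to 3.12). The CPM of control replicate 4 depend on its normalization factor of 0.489, the lowest of all libraries.

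Control replicate 4 was far above the other controls for surface epithelium markers (754 CPM against 203 to 247), stroma markers (2199 against 336 to 649), endothelial markers (212 against 25.6 to 42.3) and smooth muscle markers (210 against 21.1 to 46.7). Control replicate 1 stood apart for oocyte markers, at 3630 CPM against 180 to 634. Mito-supplemented replicate 1 was far above the other 3 of its group for leukocyte markers (722 CPM against 8.55 to 14.5) and red cell markers (4530 against 19.2 to 72.9), and mito-supplemented replicate 4 for smooth muscle markers (308 against 41.4 to 83.5). Mito-supplemented replicate 3 had a normalization factor of 1.37, and those of its group otherwise lay between 1.05 and 1.09.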

How the results depend on the processing

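The number of genes called was 0 in edgeR's quasi-likelihood test, 58 in its likelihood ratio test and 141 in DESeq2. Of the 9 genes besides Sp5, DESeq2 called 1 (Lgr5). Of the wider Wnt list besides Sp5, the likelihood ratio test called 1 (Wnt9a, counted 1 to 47 times in controls) and DESeq2 called 3 (Lgr5, Wls and Wnt9a). The cause was not tested. These counts were 0 in limma-voom and in every alternative that kept the quasi-likelihood test, including each library left out. Deviations of same-numbered samples correlated at -0.24, -0.19, -0.33 and 0.22, so the samples were not treated as pairs, and with the replicate block 0 genes were called.

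The log2 fold changes of the 9 genes were above 0 in all 20 alternatives each. With library size only, the median of all genes moved from -0.10 to 0.17 and that of the 9 from 1.11 to 1.70. The lowest value was that of Tcf7, 0.03, without the 3 libraries high in red cell markers. The quasi-likelihood test without legacy settings and the omission of those 3 libraries were added after the data were seen. With at least 1 CPM in 4 libraries, Sp5 did not pass the filter. In controls, depth limits what can be said of Sp5, since 0 to 4 counts were found.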
